A study of Mus musculus with 37 samples.

Results

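The genes of Polycomb repressive complex 2 (PRC2) were followed through mouse oocytes, eggs, early embryos and embryonic day 6.5 (E6.5) lineages with and without maternal BAP1. The members were the 10 genes with the symbols Ezh1, Ezh2, Eed, Suz12, Rbbp4, Rbbp7, Jarid2, Aebp2, Mtf2 and Phf19. They were matched by symbol, and were chosen with earlier results of these data known. All 10 were found in both deposited tables, each of which lists 55401 genes. In late 2-cell embryos from Bap1 knockout eggs, Ezh2, Eed and Suz12 were higher and Mtf2 was lower than in controls. At the 4 earlier stages only Phf19 and Mtf2 passed the test, where 8.34% to 14.9% of all genes did. Phf19 reached the 1 FPKM required for testing mainly in controls, where it was higher. No member passed in epiblast or visceral endoderm at E6.5, where 0 and 1 of 13914 genes did. Extraembryonic ectoderm was not tested.

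PRC2 methylates lysine on the tail of histone H3 and so makes H3K27me3, a mark of silenced developmental genes. EZH1 and EZH2 are the alternative catalytic subunits, EED binds the finished mark and stimulates the enzyme, SUZ12 is the scaffold, and RBBP4 and RBBP7 are histone chaperones that also serve in other complexes. JARID2 and AEBP2 mark one form of the complex, and the Polycomb-like proteins MTF2 and PHF19 mark the other, whose DNA-binding domains contact unmethylated CpG islands. In mouse oocytes maternal PRC2 lays down H3K27me3 that passes to the embryo, where it can act as an imprint. BAP1 is the catalytic subunit of PR-DUB, a Polycomb deubiquitinase that takes ubiquitin off histone H2A, the mark placed by Polycomb repressive complex 1.

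Bap1 flox/flox females carrying Gdf9-iCre, in which the Gdf9 promoter drives iCre in oocytes, gave the knockout groups. Control groups were Bap1 flox/flox without iCre, so both arms carry the floxed allele. Total RNA was sequenced at 5 stages: fully grown oocytes (FGO), MII eggs, late 1-cell embryos (L1C), early 2-cell embryos (E2C) and L2C, the late 2-cell stage. There were 3 control and 3 knockout libraries at E2C, and at each of the other 4 stages 2 from controls and 3 from knockouts. Embryos at these stages were sired by B6 males. The E6.5 embryos were sired by PWK males and gave poly(A) libraries of epiblast (EPI) and visceral endoderm (VE), with 2 control and 2 knockout libraries each, and of extraembryonic ectoderm (EXE), with 1 control and 2 knockout libraries. Embryos of the knockout groups lack maternal BAP1 but inherited an intact paternal Bap1 allele. The age of the females and the number of oocytes or embryos per library are not given in the sources used here. The labels do not say that the libraries of a group came from separate females, so the p-values measure only the spread between these libraries, which may be technical.

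Levels are in FPKM, as deposited: fragments divided by gene length in kilobases and by a library total whose definition the sources used here do not give. Being per length, FPKM can be compared between genes, but read numbers are lost and the depth is unknown. Bap1 lay at 16.3 to 29.9 FPKM in the 11 control libraries of the 5 early stages and at 3.76 to 11.7 FPKM in the 15 knockout libraries. Every knockout library was below every control library of its stage. At E6.5 mean Bap1 was 18.4 FPKM in EPI controls, 14.8 FPKM in VE controls and 21.8 FPKM in the EXE control, and 27.8, 18.9 and 23.6 FPKM in the matching progeny of knockout eggs. All 8 oocyte markers examined (the Zp1, Zp2, Zp3, Gdf9, Bmp15, Oosp1, Nobox and Figla genes) were at 1 FPKM or more in every FGO and MII library. The summed markers of EPI, VE and EXE were each highest in the lineage that carries their name, although the epiblast sum was still 408 to 506 FPKM in EXE, against 965 to 1452 FPKM in EPI. In a bulk library, fewer cells of a type and less RNA per cell cannot be told apart.

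Windows of 150 bases upstream of the RefSeq start (GRCm38.p6) are shown for the 4 members that passed the test in L2C, because they moved together or in opposite directions there. Capitals mark matches to the motifs GGGCGG (GC box) and CCAAT on either strand.
Ezh2: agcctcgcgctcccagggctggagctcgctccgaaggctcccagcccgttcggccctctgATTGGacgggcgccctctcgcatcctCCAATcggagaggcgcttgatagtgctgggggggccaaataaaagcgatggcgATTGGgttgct
Eed: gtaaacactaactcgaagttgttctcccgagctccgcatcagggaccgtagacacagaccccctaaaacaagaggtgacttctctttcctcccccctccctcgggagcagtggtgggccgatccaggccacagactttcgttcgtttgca
Suz12: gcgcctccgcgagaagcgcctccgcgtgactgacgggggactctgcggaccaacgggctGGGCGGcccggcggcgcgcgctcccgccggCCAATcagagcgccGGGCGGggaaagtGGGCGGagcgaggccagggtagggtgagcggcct
Mtf2: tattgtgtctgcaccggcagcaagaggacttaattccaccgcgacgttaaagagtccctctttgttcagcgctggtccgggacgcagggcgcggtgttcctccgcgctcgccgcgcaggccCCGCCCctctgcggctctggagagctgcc
The windows are chr6:47595031-47595180 for Ezh2 and chr7:89980977-89981126 for Eed, both on the minus strand, and chr11:79992956-79993105 for Suz12 and chr5:108065524-108065673 for Mtf2, both on the plus strand. The genes themselves span chr6:47530139-47595341, chr7:89954654-89980983, chr11:79993106-80034123 and chr5:108065674-108109004 in GENCODE M21 (GRCm38). For Mtf2 the first of 2 RefSeq starts is shown. None of these 4 windows held the E2F motif TTTGGCGC (in 0.268% of windows), its shorter form TTCCCGC (2.59%), the homeobox motif GGATTA (3.6%), the TATA box TATAAA (7.57%) or the E-box CACGTG (4.3%), searched on both strands. The Ezh2 window held CCAAT 3 times, with first bases at -90, -64 and -11 from the start, and no GC box. Suz12 had 3 GC boxes and 1 CCAAT, Mtf2 had 1 GC box, and Eed matched none of the 7 motifs. Of 32851 mouse windows of the same length, 28.6% held GGGCGG and 24.5% held CCAAT. CpG dinucleotides numbered 13 in the Ezh2 window, 8 in Eed, 23 in Suz12 and 16 in Mtf2, against a median of 4 over all windows. At the first start of the members not shown, counts ran from 0 in Aebp2 to 20 in Phf19, with 19 in Rbbp7 and 18 in Rbbp4. The second Mtf2 start had 1 CpG, 1 CCAAT and no GC box. A match is a string of letters and says nothing of binding.

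In control oocytes the core subunits differed in level by more than an order of magnitude. Rbbp7 was the highest member of FGO controls, at 397 and 381 FPKM, followed by Ezh2 at 158 and 153, Suz12 at 114 and 126 and Eed at 89.2 and 80.7 FPKM. Ezh1 lay at 16.5 and 14.9 FPKM, so that the ratio of Ezh1 to Ezh2 was 0.101 (geometric mean of 2 libraries). Rbbp4 lay at 19.1 and 17.5 FPKM, a ratio to Rbbp7 of 0.0470. Among the accessory subunits Jarid2 lay at 45.1 and 48.9, Aebp2 at 21.1 and 22.2 and Mtf2 at 19.6 and 22.4 FPKM. Phf19 was the lowest member, at 1.88 and 1.92 FPKM. The ranges of Aebp2 and Mtf2 overlapped, and the other neighbours in this order did not.

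**Figure D1:**
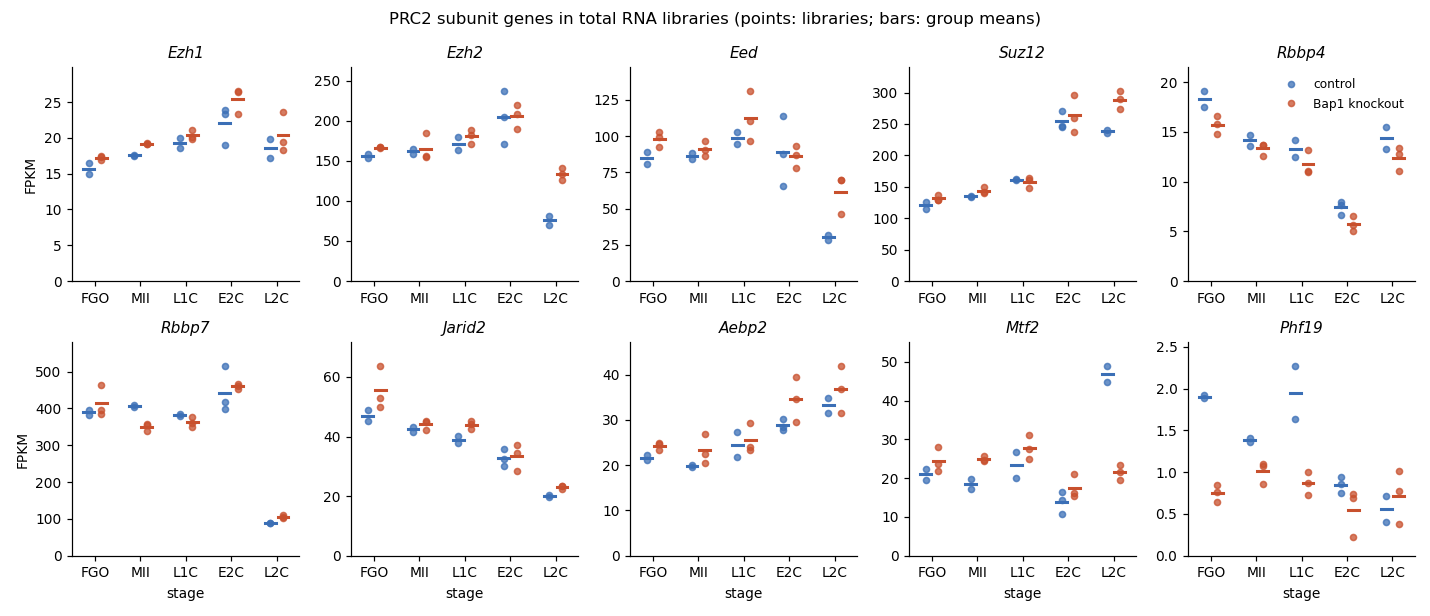
FPKM of the 10 PRC2 subunit genes (vertical axis, linear, from 0) in total RNA libraries of 5 stages, with controls in blue and Bap1 knockouts in red. Points are libraries and bars are group means. In L2C the 3 knockout libraries of Ezh2 sit between 126 and 141 FPKM, above both controls, and those of Mtf2 between 19.6 and 23.4 FPKM, below both controls.

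Before the 2-cell stage 1 of 10 members passed the knockout comparison in each of FGO, MII and L1C. The shares of all genes that passed were similar, at 8.34%, 12% and 14.9%. In FGO 1 of 10 members tested passed an adjusted p of 0.05, against 8.34% of all 11560 genes tested at that stage. That gene was Phf19, which encodes a Polycomb-like accessory subunit. Its FPKM was 1.88 and 1.92 in controls and 0.764, 0.638 and 0.847 in knockouts, so the groups did not overlap. On the log2(FPKM + 1) scale, which understates changes of low genes, Phf19 fell by 0.73 (SE 0.12, limma adjusted p = 0.0188). Phf19 reached 1 FPKM only in the 2 controls, so it entered the test through the group where it was high. Without either control it was below the filter and was not tested. The call was lost without FGO knockout replicate 2 (-0.69, adjusted p = 0.0691) or replicate 3 (-0.77, adjusted p = 0.0545). Another 7 members had groups that did not overlap in FGO without passing the test, as did many genes: 46.5% of those tested were separate. Of these 7 members Rbbp4 was lower in knockouts, and Ezh1, Ezh2, Eed, Suz12, Jarid2 and Aebp2 were higher.

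In MII eggs Mtf2, another Polycomb-like subunit, was the 1 member of 10 to pass the test, against 12% of 11357 genes. It lay at 17.2 and 19.9 FPKM in controls and at 25.6, 24.4 and 24.7 FPKM in knockouts. Mtf2 rose by 0.41 (SE 0.081, limma adjusted p = 0.0227). Leaving out MII control replicate 1 (0.31, adjusted p = 0.159) or 2 (0.51, adjusted p = 0.0714), or knockout replicate 1 (0.39, adjusted p = 0.0710) or 2 (0.42, adjusted p = 0.0681), ended the call. Rbbp7 was separate in the other direction, at 409 and 404 FPKM in controls and 355, 339.9 and 358 FPKM in knockouts, and missed the threshold (-0.21, limma adjusted p = 0.0602). Phf19 was again lower in every knockout library, at 1.41 and 1.36 FPKM in controls and 1.10, 0.861 and 1.08 FPKM in knockouts, without passing the test. In all 6 of 10 members were separate in MII, where 47% of genes tested were.

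In L1C embryos 1 of 10 members passed, against 14.9% of 11096 genes, and it was again Phf19. Its FPKM was 1.64 and 2.27 in controls and 1.00, 0.872 and 0.730 in knockouts, with no overlap. Here too both controls but only 1 knockout library reached the 1 FPKM of the filter. Phf19 fell by 0.66 (SE 0.17, limma adjusted p = 0.0419), but leaving out any 1 of the 5 libraries ended the call, with differences of -0.81 without control replicate 1, -0.50 without control replicate 2 and -0.71, -0.66 and -0.60 without knockout replicates 1, 2 and 3 (adjusted p from 0.0538 to 0.303). Separate groups were seen for 3 of 10 members there and for 49.6% of genes tested. The summed FPKM of 8 granulosa and cumulus markers was lower in knockouts at every early stage, also where Phf19 did not pass. It was 8.68 to 9.41 in FGO controls and 3.79 to 4.32 in FGO knockouts, and 5.73 to 7.38 in L1C controls and 2.15 to 3.03 in L1C knockouts. In MII it was 5.22 to 6.92 in controls and 2.29 to 2.78 in knockouts. In E2C it was 4.991 to 6.495 in controls and 1.995 to 2.352 in knockouts. Of the 8 markers, 2 in FGO controls and 1 in FGO knockouts reached 1 FPKM in every library of the group, and Amh and Amhr2 were at 0 in all FGO knockouts. Their part in the Phf19 result was not tested.

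In E2C embryos none of 9 members tested passed with limma (0 at an unadjusted p under 0.05), against 10.1% of 11780 genes. A fit that shares the spread over all 26 libraries called 1 of them, Rbbp4. Phf19 lay under 1 FPKM in all 6 libraries and was not tested. It and Rbbp4 were the 2 members with separate groups, against 33.9% of genes tested. Rbbp4 lay at 6.60, 7.97 and 7.64 FPKM in controls and at 5.61, 6.50 and 5.04 FPKM in knockouts (-0.33, limma adjusted p = 0.263). Ezh2 overlapped between genotypes at this stage, at 205, 237 and 171 FPKM in controls and 208, 220.1 and 189 FPKM in knockouts. Eed overlapped as well, at 114, 87.9 and 65.8 FPKM in controls and 87.3, 93.4 and 77.9 FPKM in knockouts. Libraries of 1 group differed more at E2C than at the earlier stages: the median SD of log2(FPKM + 1) within a group was 0.26, against 0.12 to 0.13 in FGO, MII and L1C.

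In L2C embryos 4 of 9 members tested passed, 3 higher and 1 lower, against 38.5% of 12718 genes (19% higher and 19.5% lower), so the share of members that passed was close to that of all genes. The median difference was 0.19 over the 9 members and 0.03 over all genes. Ezh2, the catalytic subunit, lay at 81.4 and 69.8 FPKM in controls and at 141, 133 and 126 FPKM in knockouts. All 3 knockout libraries were above both controls, with group means of 75.6 ± 8.16 FPKM (SD, n = 2) and 134 ± 7.18 FPKM (SD, n = 3). Ezh2 rose by 0.82 (SE 0.10, limma adjusted p = 0.000796).

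Eed, the subunit that reads the mark, lay at 31.9 and 28.5 FPKM in L2C controls and at 69.5, 69.6 and 46.3 FPKM in knockouts. Its lowest knockout library was still above the highest control, and the knockout libraries spread more widely than the controls. Eed rose by 0.99 (SE 0.18, limma adjusted p = 0.00406), a ratio of group means of 2.05. Suz12, the scaffold, lay at 235 and 241 FPKM in controls and at 290.3, 274 and 302 FPKM in knockouts, again without overlap. Suz12 rose by 0.28 (SE 0.083, limma adjusted p = 0.0310). This smaller difference lost its call without L2C control replicate 1 (0.26, adjusted p = 0.130) or 2 (0.30, adjusted p = 0.0901) and without knockout replicate 1 (0.27, adjusted p = 0.0564) or 3 (0.24, adjusted p = 0.115), as well as without a filter on low values (adjusted p = 0.0897) or without the intensity trend (adjusted p = 0.153).

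Mtf2 moved the other way in L2C. It lay at 44.7 and 48.9 FPKM in controls and at 19.6, 21.5 and 23.4 FPKM in knockouts, so that the lowest control was well above the highest knockout. Mtf2 fell by 1.09 (SE 0.12, limma adjusted p = 0.000474), a ratio of group means of 0.460. Tmed5, a cargo-sorting gene on the opposite strand, overlaps 6.9% of the exonic bases of Mtf2 and changed alongside it. Tmed5 lay at 38.8 to 45.7 FPKM in L2C controls and 17.7 to 21.7 FPKM in knockouts (-1.03, limma adjusted p = 0.000963). Because it is not stated whether strand was used in the authors' quantification, reads of the shared stretch cannot be told apart. In MII, where Mtf2 was higher in knockouts, Tmed5 lay at 2.97 to 2.99 FPKM in controls and 2.35 to 3.75 FPKM in knockouts.

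Among the members that did not pass in L2C, Rbbp7 came nearest, at 89.9 and 87.6 FPKM in controls and 101, 104 and 111 FPKM in knockouts (0.25, limma adjusted p = 0.0564). It passed under 4 of 14 alternatives, among them TPM scaling (0.39, adjusted p = 0.0204). Jarid2 was separate too, at 19.6 and 20.5 FPKM in controls and 23.4, 23.4 and 22.3 FPKM in knockouts, without passing. Ezh1, Rbbp4 and Aebp2 overlapped between genotypes. Phf19 was not tested, at 0.714 and 0.403 FPKM in controls and 0.376, 1.01 and 0.769 FPKM in knockouts. Across all genes 62.2% of those tested had separate groups in L2C, beside 6 of the 10 members. The calls of Ezh2, Eed and Mtf2 held under all 14 alternatives run for each, with differences of 0.71 to 0.96 for Ezh2, 0.89 to 1.18 for Eed and -1.15 to -0.97 for Mtf2.

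**Figure D2:**
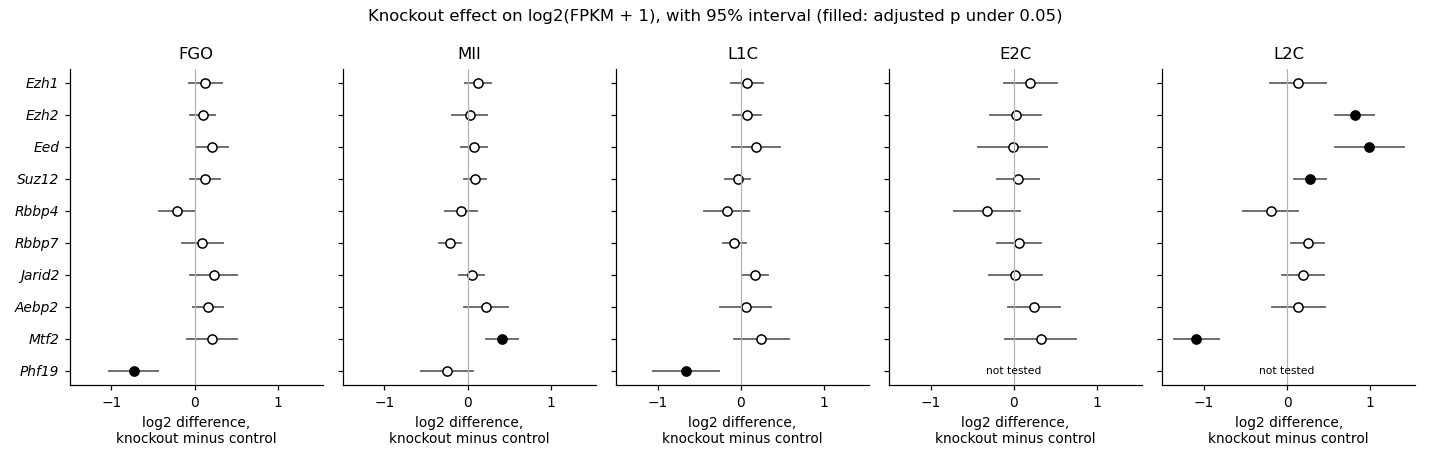
Knockout minus control difference of log2(FPKM + 1) (horizontal axis) for each PRC2 subunit gene (vertical axis) at 5 stages, with 95% intervals from limma and filled points for an adjusted p under 0.05. Filled points are Phf19 in FGO and L1C, Mtf2 in MII, and Ezh2, Eed, Suz12 and Mtf2 in L2C, where Ezh2 is at 0.82 and Mtf2 at -1.09.

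Summed FPKM of the 8 oocyte markers was also higher in L2C knockouts, at 753 to 883, than in L2C controls, at 456 to 482, with all 8 markers at 1 FPKM or more in every library of both groups. The summed granulosa and cumulus markers were lower in L2C knockouts, at 3.74 to 4.48 FPKM against 10.7 to 12.6 FPKM, with 2 of 8 at 1 FPKM or more in every library of each group. The part of either list in the differences of Ezh2, Eed, Suz12 and Mtf2 was not tested. When every library was scaled to the same sum (TPM scaling), the median difference of all genes in L2C moved from 0.03 to 0.16, and the calls went from 2417 higher and 2476 lower to 3014 higher and 1908 lower. In E2C the same scaling moved the median from 0.03 to 0.13 and the calls from 501 higher and 692 lower to 747 higher and 559 lower. The 4 L2C members kept their directions and calls, with TPM-scaled differences of 0.96 for Ezh2, 1.14 for Eed, 0.42 for Suz12 and -0.97 for Mtf2.

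To ask whether the L2C differences were of that stage, the knockout effect was compared between stages within 1 fit (an interaction). From E2C to L2C the effect changed for 3 of 9 members tested, against 16.7% of 14051 genes. It became more positive for Ezh2 by 0.79 (SE 0.18, limma adjusted p = 0.0114) and for Eed by 1.00 (SE 0.29, limma adjusted p = 0.0362), and more negative for Mtf2 (-1.41, SE 0.24, limma adjusted p = 0.00274). The Eed call was lost without any 1 of 8 of the 11 libraries (E2C control replicate 1 or 2, E2C knockout replicate 1 or 3, either L2C control, or L2C knockout replicate 1 or 2), with values from 0.81 to 1.08, and the Ezh2 call without L2C control replicate 2 (0.69, adjusted p = 0.0667). Against FGO, 4 of 10 members differed in the L2C effect, against 29.8% of 14351 genes: Ezh2 (0.72, limma adjusted p = 0.00170), Eed (0.78, limma adjusted p = 0.0275), Phf19 (0.86, limma adjusted p = 0.0323) and Mtf2 (-1.30, limma adjusted p = 0.000724). For Eed that call was lost without FGO control replicate 1 or 2, FGO knockout replicate 2 or 3, L2C control replicate 2 or L2C knockout replicate 2 (0.68 to 0.85). For Phf19 it was lost without either FGO control, any FGO knockout, L2C control replicate 2 or L2C knockout replicate 3 (0.72 to 0.90). Phf19 reached 1 FPKM only in the FGO controls and L2C knockout replicate 2. None of the 10 members differed in the knockout effect from FGO to MII, from MII to L1C or from L1C to E2C with limma, where 0%, 0.0508% and 0.337% of all genes did. At an unadjusted p under 0.05 these 3 intervals held 2 member results, Rbbp7 and Phf19 from FGO to MII.

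Among the 4 successive steps, controls had most members that changed between E2C and L2C, the interval that spans the main wave of zygotic genome activation. In controls 6 of 9 members passed, 4 lower and 2 higher, against 54.6% of 14051 genes (23.9% lower and 30.7% higher). Ezh2 fell by 1.41 (SE 0.13, limma adjusted p = 3.61e-06), from 171 to 237 FPKM down to 69.8 to 81.4 FPKM. Eed fell by 1.50 (SE 0.22, limma adjusted p = 0.000104), from 65.8 to 114 FPKM down to 28.5 to 31.9 FPKM. Rbbp7 fell by 2.30 (SE 0.11, limma adjusted p = 3.67e-08), from 398 to 516 FPKM down to 87.6 and 89.9 FPKM, and Jarid2 fell by 0.68 (SE 0.13, limma adjusted p = 0.000932). The 2 that rose were Rbbp4, by 0.87 (SE 0.16, limma adjusted p = 0.000659), and Mtf2, by 1.71 (SE 0.18, limma adjusted p = 7.79e-06). Mtf2 went from 10.9, 16.4 and 14.2 FPKM in E2C to 44.7 and 48.9 FPKM in L2C. Tmed5 went from 2.73 to 4.43 FPKM in E2C controls to 38.8 to 45.7 FPKM in L2C controls over the same interval. Suz12 stayed high, at 244 to 271 FPKM in E2C and 235 and 241 FPKM in L2C, which did not pass the test although the groups were separate.

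Knockouts passed for 4 of 9 members over the same interval, 3 lower and 1 higher, against 49.1% of genes (19.8% lower and 29.3% higher). Rbbp7 (-2.12), Jarid2 (-0.51) and Rbbp4 (1.00) changed in the direction seen in controls. Ezh2 fell by 0.62 (SE 0.12, limma adjusted p = 0.00113), from 189 to 220.1 FPKM to 126 to 141 FPKM. Eed gave -0.49 (limma adjusted p = 0.0530) and Mtf2 gave 0.29 (limma adjusted p = 0.152), both past no threshold here. Eed passed under 8 of 20 alternatives, including TPM scaling (-0.65, adjusted p = 0.0245). The knockout effect in L2C and the control change from E2C share the same 2 L2C control libraries, and the interaction above is the test of their difference. Median centring moved the calls over all genes in this interval from 4318 higher and 3356 lower to 3501 higher and 4579 lower in controls, and from 4112 and 2786 to 2907 and 4486 in knockouts, with the median of all genes in controls going from 0.05 to -0.18.

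**Figure D3:**
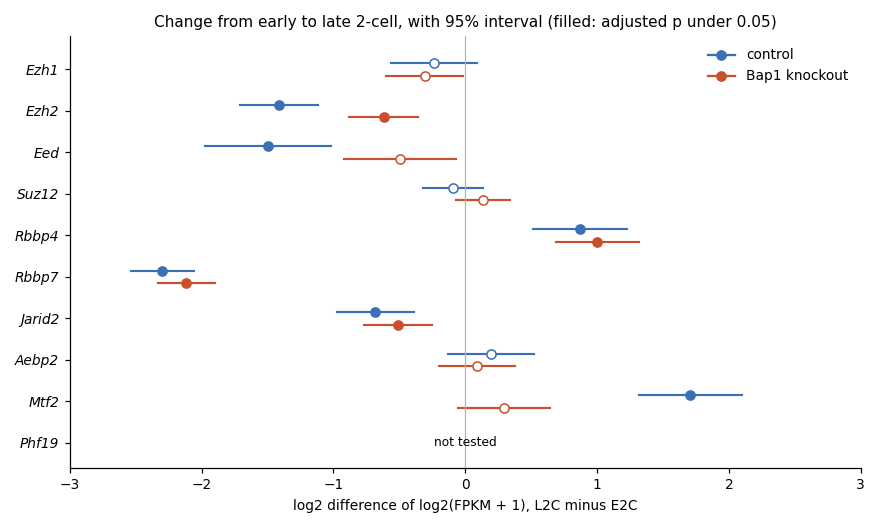
Change of log2(FPKM + 1) from E2C to L2C (horizontal axis) for each PRC2 subunit gene (vertical axis) in controls (blue) and knockouts (red), with 95% intervals from limma and filled points for an adjusted p under 0.05. Mtf2 is at 1.71 in controls and 0.29 in knockouts, Eed at -1.50 and -0.49, and Ezh2 at -1.41 and -0.62, while Rbbp7 and Rbbp4 have intervals that overlap between genotypes.

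From FGO to MII and from MII to L1C fewer members passed than from E2C to L2C. Smaller shares of all genes passed too: 4.22% and 27.7% in controls, against 54.6% from E2C to L2C. From FGO to MII no member passed in controls with limma (2 at an unadjusted p under 0.05, Suz12 and Rbbp4), against 4.22% of genes. In knockouts Jarid2 was the 1 of 10 to pass (-0.32, limma adjusted p = 0.0449), against 10.9% of genes, a call that 13 of 19 alternatives ended, among them leaving out any of the 10 libraries except FGO knockout replicate 2 (-0.35 to -0.22). From MII to L1C Suz12 rose by 0.26 in controls (SE 0.064, limma adjusted p = 0.0133), from 134 and 135 FPKM to 162 and 161 FPKM, and was the 1 of 10 to pass, against 27.7% of genes. That call was lost without either MII control (0.25 and 0.27) or either L1C control (both 0.26). No knockout member passed there with limma (2 at an unadjusted p under 0.05, Eed and Suz12), against 17.1% of genes.

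From L1C to E2C 4 of 10 members passed in controls, against 48.8% of genes. Suz12 rose by 0.65 (SE 0.10, limma adjusted p = 0.000283), Rbbp4 fell by 0.77 (limma adjusted p = 0.00133), Mtf2 fell by 0.72 (limma adjusted p = 0.00810) and Phf19 fell by 0.67 (limma adjusted p = 0.0211). Phf19 reached 1 FPKM only in L1C libraries, so it entered this test through the stage where it was high. Without L1C control replicate 2 the calls of Mtf2 (-0.53) and Phf19 (-0.51) were lost, as they were under centring on library medians (-0.49 and -0.44). In knockouts 7 of 10 passed, 4 higher and 3 lower, against 47.6% of genes (16.8% higher and 30.8% lower). Suz12 (0.74), Rbbp7 (0.35), Aebp2 (0.42) and Ezh1 (0.31) rose, and Rbbp4 (-0.93), Mtf2 (-0.65) and Jarid2 (-0.40) fell. Aebp2 and Ezh1 lost the call under TPM scaling (0.31 and 0.20), and Mtf2 and Jarid2 lost it under centring on library medians (-0.39 and -0.14). Over the same step in controls, TPM scaling moved the median of all genes from -0.17 to -0.38 and median centring moved it to 0.06. In knockouts centring moved the calls from 2143 higher and 3939 lower to 3632 higher and 2598 lower. Aebp2 lost the call without L1C knockout replicate 1 or 2 or E2C knockout replicate 1 or 3 (0.32 to 0.41), and Ezh1 without either L1C control, any L1C knockout or E2C knockout replicate 1 or 3 (0.28 to 0.33).

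Over the whole span from FGO to L2C, 9 of 10 members passed in controls, 3 higher and 6 lower, against 73.9% of 14351 genes (32.6% higher and 41.3% lower). Suz12 (0.98), Mtf2 (1.12) and Aebp2 (0.59) were higher in L2C, and Rbbp7 (-2.12), Eed (-1.46), Jarid2 (-1.19), Ezh2 (-1.04), Phf19 (-0.90) and Rbbp4 (-0.33) were lower. Phf19 reached 1 FPKM only in the FGO controls and L2C knockout replicate 2. Its control fall was thus tested only because it was high in FGO controls. In knockouts 7 of 10 passed, against 74.8% of genes, and Mtf2 and Phf19 were not among them. Ezh2 fell by 0.32 there and Eed by 0.69. TPM scaling moved the median of all genes over this span from -0.18 to -0.61 in controls, and Aebp2 lost its control call under it (0.18). Rbbp4 lost its control call under median centring (-0.20) or without FGO control replicate 1 (-0.27), FGO control replicate 2 (-0.39) or L2C control replicate 1 (-0.23), and its knockout call under median centring (-0.23) or without FGO knockout replicate 2 (-0.28).

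Ratios between members do not depend on how a library was scaled. The share of Ezh1 relative to Ezh2 was near 0.11 in both genotypes from MII to E2C, with group means between 0.108 and 0.124. In L2C it was 0.245 in controls (0.245 and 0.246 in the 2 libraries) and 0.152 in knockouts (0.138 to 0.177), without overlap. Averaged over the 5 stages, the genotypes differed by -0.07 on the log2 scale (two-sided exact permutation test within stages, p = 0.421). Mtf2 plus Phf19 relative to Jarid2 plus Aebp2 compares the accessory subunits among the members. It was 0.889 in both L2C controls and 0.371 (0.305 to 0.411) in L2C knockouts, where the groups were separate. Phf1, the third Polycomb-like gene, is not in this ratio and was higher than Mtf2 in L2C controls, as given below. The ratio is therefore no measure of the balance of the alternative forms of the complex. It lay between 0.235 and 0.411 in the group means of the 4 earlier stages and between 1.41 and 5.24 in those of E6.5. The E6.5 libraries were poly(A) and from embryos sired by PWK males, unlike the total RNA libraries of the early stages. Stage, library type and sire therefore cannot be told apart between these ranges. The mean difference of the ratio over the 5 early stages was -0.17 (exact permutation test, p = 0.267).

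Rbbp4 relative to Rbbp7 was lower in knockouts on average over stages, by -0.24 on the log2 scale (two-sided exact permutation test over 200000 arrangements, p = 0.00220, adjusted over 3 ratios 0.00661). The knockout groups lay below the control groups without overlap in FGO (0.0378 against 0.0470), E2C (0.0123 against 0.0168) and L2C (0.117 against 0.161). In MII and L1C they overlapped, at 0.0380 against 0.0348 and 0.0323 against 0.0347. Leaving out any 1 library gave values from -0.26 to -0.21. At E6.5, outside that test, the ratio was 0.338 in controls and 0.631 in knockouts in EPI, and 0.0314 and 0.0361 in VE, with overlapping groups in EPI and VE. Antisense genes overlap 18.0% of the exonic bases of Rbbp4 (Gm26722 and Sync) and 6.0% of those of Rbbp7 (Txlng), and reads of these stretches cannot be told apart without strand.

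**Figure D4:**
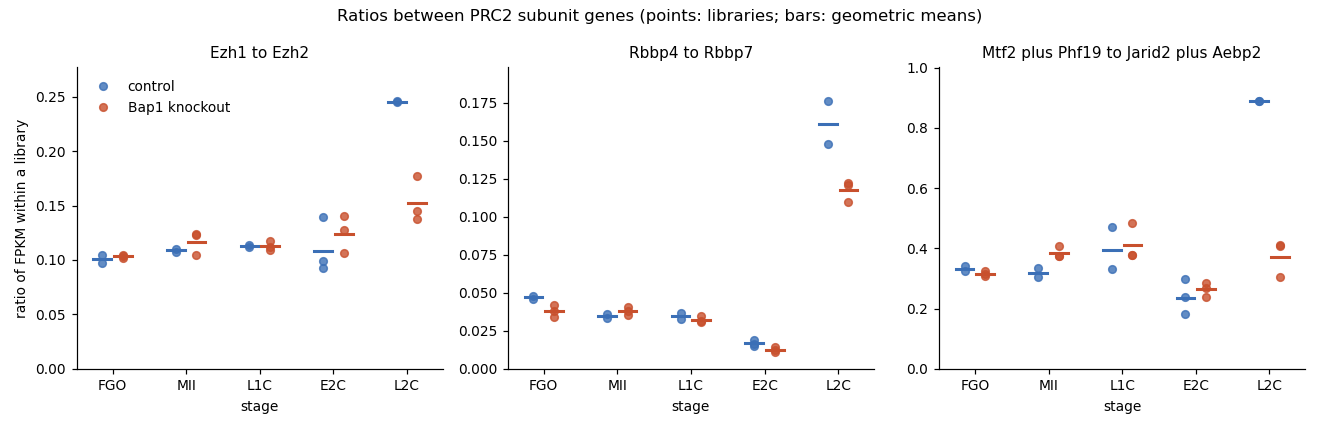
Ratios of FPKM between PRC2 subunit genes within a library (vertical axis, from 0) by stage, with controls in blue and knockouts in red. Points are libraries and bars are geometric means. The ratio of Ezh1 to Ezh2 in L2C is 0.245 in controls and 0.152 in knockouts, and that of Mtf2 plus Phf19 to Jarid2 plus Aebp2 is 0.889 and 0.371.

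At E6.5 no member passed the knockout comparison in EPI or VE with limma (0 of 10 in each, and 0 in each at an unadjusted p under 0.05), against 0% and 0.00719% of 13914 genes. Libraries of 1 group differed more here, with a median SD within a group of 0.44 in EPI and 0.34 in VE. Groups were separate for 3 of 10 members in EPI (Ezh2, Suz12 and Aebp2) and 2 of 10 in VE (Rbbp4 and Phf19), against 24% and 24.2% of genes tested. Ezh2 in EPI lay at 52.1 and 49.4 FPKM in controls and at 64.6 and 65.9 FPKM in knockouts. In VE Ezh2 lay at 21.0 and 39.1 FPKM in controls and 40.2 and 38.5 FPKM in knockouts, overlapping. Extraembryonic ectoderm has 1 control library, so no test was made; Ezh2 lay at 47.5 FPKM in it and at 48.4 and 48.7 FPKM in the knockout libraries.

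Several members differed between lineages at E6.5, with both genotypes averaged. Between EPI and VE 5 of 10 members passed, against 38.4% of genes. Jarid2 was higher in EPI by 1.83 (SE 0.33, limma adjusted p = 0.00183), at 15.7 and 12.4 FPKM in EPI controls and 1.71 and 3.89 FPKM in VE controls. Rbbp4 was higher in EPI by 1.42 (SE 0.22, limma adjusted p = 0.000817), at 67.6 to 124 FPKM over 4 EPI libraries and 27.1 to 41.9 FPKM over 4 VE libraries. Ezh2 was higher in EPI by 0.76 (SE 0.22, limma adjusted p = 0.0241), a call lost without either EPI control (0.74 and 0.78), VE control replicate 1 (0.54) or either VE knockout (0.77 and 0.74).

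Rbbp7 was higher in VE (EPI minus VE -2.32, SE 0.51, limma adjusted p = 0.00534). It lay at 139.6 and 361 FPKM in EPI controls, 77.3 and 316 FPKM in EPI knockouts, 1362 and 561 FPKM in VE controls and 1332 and 772 FPKM in VE knockouts. In both genotypes replicate 1 was the lower EPI library and the higher VE library. Rbbp7 is X-linked, and each EPI and VE group held 1 library with the summed FPKM of 4 Y-linked genes at 0 and 1 with it at 38.1 or more. The library at 0 was replicate 2 in controls and replicate 1 in knockouts. The part of embryo sex in the spread of Rbbp7 was not tested. Eed had the same order of replicates as Rbbp7, at 69.9 and 138 FPKM in EPI controls, 47.5 and 128 FPKM in EPI knockouts, 117 and 68.0 FPKM in VE controls and 113 and 72.9 FPKM in VE knockouts. Replicate numbers are not stated to mark shared litters or days.

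Phf19 showed the widest lineage range of the members. It lay at 6.99 FPKM in the EXE control and 4.75 and 6.21 FPKM in EXE knockouts, at 0.974 to 1.55 FPKM in VE and at 0.0696 to 0.232 FPKM in EPI, with no overlap between lineages. All EPI libraries were under 1 FPKM, so Phf19 entered the fit through EXE and VE. EXE exceeded EPI by 2.65 (SE 0.22, limma adjusted p = 5.24e-05) and VE by 1.74 (SE 0.22, limma adjusted p = 0.000393), and EPI minus VE was -0.91 (limma adjusted p = 0.00563). Phf19 was the 1 of 10 members to pass between EXE and EPI, against 19.6% of genes. Between EXE and VE 3 of 10 passed, against 22.6% of genes: Phf19, Jarid2 (2.40, SE 0.37, limma adjusted p = 0.00113) and Rbbp4 (0.83, SE 0.25, limma adjusted p = 0.0369). The Rbbp4 call was lost without any 1 VE library (0.74 to 0.93) or either EXE knockout (0.81 and 0.86), and also under TPM scaling (0.86) or median centring (0.74). Jarid2 in EXE lay at 24.0 FPKM in the control and 27.1 and 13.3 FPKM in knockouts. Mtf2, Aebp2, Suz12, Ezh1 and Eed did not pass in these lineage contrasts, and Mtf2 lay between 29.2 and 51.0 FPKM in all 11 libraries.

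**Figure D5:**
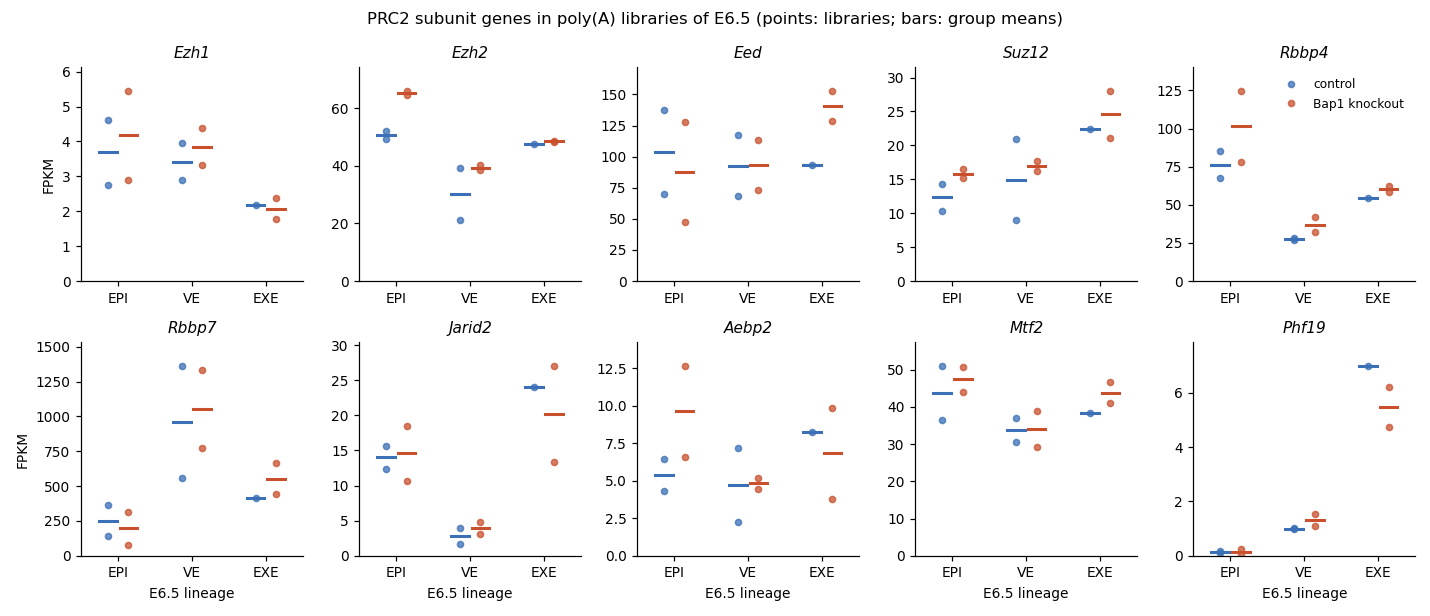
FPKM of the 10 PRC2 subunit genes (vertical axis, linear, from 0) in poly(A) libraries of EPI, VE and EXE at E6.5, with controls in blue and progeny of knockout eggs in red. Points are libraries and bars are group means. Phf19 is at 4.75 FPKM or more in EXE and at 0.232 FPKM or less in EPI, and Rbbp7 spans 77.3 to 1362 FPKM.

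Partners and opponents of PRC2 were described from a list of 8 genes. In L2C 7 of the 8 were tested, and 3 were higher and 1 lower in knockouts, against 19% and 19.5% of all genes, with a median difference of 0.45 beside 0.03 over all genes. Ezhip, named AU022751 in the annotation, encodes an inhibitor of EZH2 and rose by 0.81 (SE 0.12, limma adjusted p = 0.00181), from 40.3 and 39.7 FPKM to 61.7, 71.3 and 80.4 FPKM. Kdm6b, an H3K27 demethylase, rose by 0.88 (SE 0.12, limma adjusted p = 0.00107), from 41.0 and 33.3 FPKM to 64.7, 68.7 and 73.1 FPKM. Kdm6a, a related demethylase, rose by 0.45 (limma adjusted p = 0.0335), from 29.6 and 28.2 FPKM to 33.8, 45.8 and 40.9 FPKM. Lcor, whose PALI isoform is a partner of the Polycomb-like form, fell by 0.34 (limma adjusted p = 0.0160), from 92.6 and 96.4 FPKM to 75.1, 73.3 and 75.3 FPKM. Phf1, the third Polycomb-like gene, gave 0.16 (limma adjusted p = 0.148) at 166 to 175 FPKM in controls, and the accessory gene Epop gave 0.66 (limma adjusted p = 0.0636) and the Y-linked Uty gave -0.83 (limma adjusted p = 0.127), while Lcorl was not tested. At the other stages 1 gene of this list passed in MII (Kdm6a, -0.23, limma adjusted p = 0.0471) and 1 in L1C (Kdm6b, 0.31, limma adjusted p = 0.0352). Of all genes 12% passed in MII and 14.9% in L1C.

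Between E2C and L2C Ezhip fell by 3.69 in controls and by 2.86 in knockouts, from 474 to 630 FPKM in E2C controls to 40.3 and 39.7 FPKM in L2C controls. Its knockout effect differed between the stages by 0.83 (SE 0.18, limma adjusted p = 0.00948), the direction seen for Ezh2 and Eed. Of 13 genes for writers of H2A ubiquitin, 11 were tested in L2C, where Rybp rose (0.48, limma adjusted p = 0.0321) and Bcorl1 (-0.75, limma adjusted p = 0.00524) and Pcgf5 (-0.67, limma adjusted p = 0.00391) fell. These were 3 of 11, while 38.5% of all genes passed in L2C. Earlier, Rnf2 fell in L1C (-0.28, limma adjusted p = 0.0354) and Kdm2b rose in E2C (0.77, limma adjusted p = 0.0371), where 14.9% and 10.1% of all genes passed. Of 8 genes for readers of H3K27me3, 5 were tested in L2C, and among them Phc1 rose (1.09, limma adjusted p = 0.000576) and Cbx7 fell (-1.11, limma adjusted p = 0.00465), beside the same 38.5% of all genes. Cbx7 was the 1 reader of 4 tested to pass in E2C, where it was higher (1.31, limma adjusted p = 0.0415), against 10.1% of all genes.

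Of 10 listed PR-DUB genes, 2 were lower in each of FGO, MII, L1C and E2C, where 8.34%, 12%, 14.9% and 10.1% of all genes passed: Bap1, the deleted gene, and Asxl3, an alternative partner of BAP1 (-0.78 in FGO, -0.84 in MII, -0.82 in L1C and -1.03 in E2C, limma adjusted p from 0.0104 to 0.0246). In L2C Foxk2 rose (0.33, limma adjusted p = 0.0232) beside the lower Bap1. Among 17 genes of other complexes that contain RBBP4 or RBBP7, 5 rose and 1 fell in L2C knockouts, against 38.5% of all genes, with a median of 0.20 beside 0.03 over all genes. Sin3b (1.23, limma adjusted p = 0.00226) and Hdac2 (0.98, limma adjusted p = 0.000358) rose most, and Mta2 fell (-1.32, limma adjusted p = 0.000499). In E2C 3 of the 17 were lower, among them Mta2 (-1.49, limma adjusted p = 0.0344) and Hdac1 (-0.86, limma adjusted p = 0.0383). Before that, Sap18 rose in FGO (0.33) and L1C (0.89), Gatad2a rose in MII (0.39) and Chaf1b fell in FGO (-0.48).

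Genes whose level over the 26 total RNA libraries was most like that of a core subunit were sought among 6311 genes, as a description in which libraries share stage and depth. Among the genes most like Suz12 were Ppp2r5c (Pearson r = 0.99) and Ccdc6 (0.98). Ezh2 was most like Tbc1d15, Snrpb2 and Akirin2 (0.96 each), Eed most like Exoc4 (0.93), Trappc3l (0.92) and Grip1os3 (0.92), and Ezh1 most like Ccdc97 (0.89), Akap10 (0.89) and Eya3 (0.88). Within the complex, Ezh2 correlated with Eed at r = 0.86 and with Rbbp7 at r = 0.82, and with Mtf2 at r = -0.73 over the same libraries.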

How the data were processed

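RNA-seq of 26 total RNA and 11 poly(A) libraries was used. Per the submitters' processing notes, Trim Galore 0.6.6, STAR 2.7.9 and StringTie 2.1.7 were used with mm10; their roles, the annotation, filters and strand use are not given in the sources used here. The deposited values are FPKM, as the authors' files give them, although column headers end in rpkm. For control epiblast replicate 1 the deposited column has a unit recorded as other, because it lists 1 value below 0 (Gm24888), which was set to 0. FPKM summed to 300668 to 430784 per total RNA library and 593705 to 704522 per poly(A) library, and the top gene held 5.98% to 23.13% and 0.56% to 1.72% of the sum.

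Each fit kept genes that reached 1 FPKM in 2 or more of its libraries, took log2(FPKM + 1) and used limma 3.58.1 (R 4.3.3, eBayes with trend = TRUE). Benjamini-Hochberg adjustment ran over all genes of a contrast, with a threshold of 0.05. Each early stage was fitted alone, stage steps and interactions on both genotypes of 2 stages, and E6.5 on 11 libraries in 6 groups, where the 1 EXE control is assumed to vary like the others. Ratios were tested by exact permutation within stages. Alternatives were a pseudocount of 0.1, no filter, a filter on means under 5 FPKM, median centring, TPM scaling, no trend, a replicate block, shared fits of 26 libraries with and without stage weights, each lineage alone, and each library left out. Scripts were tested on simulated data. Positions and overlaps come from GENCODE M21 (GRCm38), in which 55141 of 55401 gene identifiers were found without regard to version, and promoters from RefSeq (10 of 10 members matched by symbol).

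The members, the gene lists and the tests were chosen with earlier results of these data known. Named genes were all members, every gene of the 8-gene list, in other lists the 2 most changed in each direction that passed, and the 3 genes most like each of Ezh1, Ezh2, Eed and Suz12 with a mean of at least 5 FPKM and no predicted or clone name. Of the genes this rule names, 2 are not reported here. Tmed5 was added after its overlap with Mtf2 was seen. Same-numbered libraries are not stated to be pairs and were not treated as such.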

Additional observations from a re-analysis of the deposited data

Results flagged for a closer look

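The knockout effect on 4 members differed between stages by an interaction test of the difference itself, which is why these results are listed. Between E2C and L2C the effect moved by 0.79 for Ezh2, by 1.00 for Eed and by -1.41 for Mtf2 (log2 scale, 6 E2C and 5 L2C libraries). Of all genes tested, 16.7% passed this interaction. Between FGO and L2C the effect moved by 0.72 for Ezh2, 0.78 for Eed, -1.30 for Mtf2 and 0.86 for Phf19 (5 libraries at each stage), where 29.8% of all genes passed. No knockout library overlapped the controls in L2C for Ezh2, Eed or Mtf2, as for 62.2% of all genes tested there. Phf19 lay at or below 1.92 FPKM in all of these libraries, where the log scale with 1 added compresses differences. It reached 1 FPKM only in the FGO controls and L2C knockout replicate 2, and was too low to be tested in L2C alone. The Phf19 call was lost under 10 of 18 alternatives. For Eed the call was lost under 10 of 20 alternatives between E2C and L2C and 7 of 19 between FGO and L2C. No explanation was tested.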

How the results depend on the processing

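FPKM gives no read numbers, so the limits here are the 2 or 3 libraries per group and the unknown depth. Of 1237 alternatives run for 68 single-gene results, 1097 left the result on its side of the threshold, 126 ended a call, 14 made one and 0 turned a direction. The number of members that passed in the knockout comparison went to 0 in FGO (main 1) with no filter on low values, with a mean of at least 5 FPKM or with the replicate block. It went to 0 in MII with no filter or with 1 fit of 26 libraries, and to 2 with stage weights, which added Rbbp7. In L1C it went to 0 with a pseudocount of 0.1, no filter, a mean of at least 5 FPKM or the replicate block, and in E2C to 1 with the fit of 26 libraries. Fewer genes enter the fit under the mean filter, which drops Phf19; the other causes were not tested. Interactions went from 7 to 4 with no filter.

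Under the replicate block, the knockout stage steps went from 19 to 11 calls and the lineage contrasts from 9 to 15 (adding Eed and Aebp2 between EPI and VE, Eed and Rbbp7 between EXE and EPI, and Rbbp7 and Aebp2 between EXE and VE), and the L2C knockout count was 3, without Suz12. The block gave each stage or lineage its own replicate terms, with replicate 1 as the baseline. Its step and lineage contrasts therefore compare fitted levels of replicate 1 and do not adjust for replicates shared between stages or lineages. Knockout contrasts within a stage do not have this limit. Deviations of same-numbered libraries correlated at -0.09 to 0.17 in the early stages and at 0.61 in EPI and 0.46 in VE. With 2 libraries per group the deviations mirror each other, so each of these lineages gives only 1 value. A batch shared by same-numbered E6.5 libraries was not tested. The numbers were not taken as pairs because the labels do not say that they are.

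Leaving out 1 library gave counts of 0 to 1 in FGO and MII, 0 in L1C and E2C, 3 to 4 in L2C, and 0 in EPI and VE. It gave 17 to 21 calls for stage steps in controls and in knockouts, 3 to 7 for interactions and 7 to 10 for lineages. The ratios ranged from -0.09 to -0.04 (Ezh1 to Ezh2), -0.26 to -0.21 (Rbbp4 to Rbbp7) and -0.22 to -0.12 (Mtf2 plus Phf19 to Jarid2 plus Aebp2).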
